A study of Pan troglodytes with 8 samples.

Results

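Transcripts of 46 genes that build, bind or cut microtubules were followed through 4 sorted cell populations of chimpanzee cerebral organoids. The members were the rows of 46 named genes in the gene column of the chimpanzee-genome (panTro6) count table, 46 of 60583 named rows, and all 46 passed the filter on low counts that left 35382 genes. They comprised 4 alpha, 7 beta and 2 gamma tubulins, 3 genes of the doublecortin family, 11 structural microtubule-associated proteins (MAPs), 4 stathmins, 5 plus-end and 3 minus-end binding proteins, 2 severing enzymes and 5 collapsin response mediator proteins (CRMPs).

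Every library came from organoids of the chimpanzee induced pluripotent stem cell line SandraA, collected at week 8 of culture and separated by fluorescence-activated sorting. The populations were neurons positive for the transcription factor BCL11B (N), basal intermediate progenitors (bIP), which are transit-amplifying cells, basal radial glia (bRG), which are stem cells away from the ventricle, and apical radial glia (aRG), the stem cells that line it. Each had 2 libraries, made by a Smart-seq2 type workflow that amplifies full-length cDNA, from 1 cell line with no genetic change or treatment named in the labels. Whether both libraries of a population had their own culture is not labelled; the tests therefore see only library-to-library spread, possibly technical.

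Microtubules are polymers of alpha and beta tubulin dimers, and gamma tubulin nucleates them. In a dividing radial glial cell they form the spindle and run along the radial fibre, whereas a postmitotic neuron uses them as stable tracks in axon and dendrites. Vertebrates carry several alpha and beta tubulin genes, called isotypes, with different tissue patterns, and MAPs, stathmins and CRMPs set how readily the polymer grows, shrinks or bundles.

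Totals were 24649971 to 33245892 counts per library. Levels below are CPM, read counts relative to the library total after scaling by edgeR's TMM method. The summed level of 8 neuron markers was 5026 and 5064 CPM in N, 2228 and 2485 in bIP, 636 and 1382 in bRG and 320 and 602 in aRG (replicates 1 and 2 in this order, here and below). That of 10 mitosis markers ran the other way, at 132 and 97.0 CPM in N, 350 and 511 in bIP, 1852 and 1749 in bRG and 4715 and 3968 in aRG. Between N and bIP, 6 of the 8 neuron markers followed their sum and 2 went against it. RBFOX3 had 154 and 121 CPM in N and 178 and 223 in bIP. SLC17A6 had 55.3 and 64.2 CPM in N and 74.2 and 71.5 in bIP. The bIP marker EOMES was at 1357 and 1540 CPM in bIP and at most 184 CPM in any other library. Markers of other cell types also differed. The 6 choroid plexus genes summed to 45.8 to 81.6 CPM in the N, bIP and bRG libraries and to 953 and 3286 in aRG. That aRG sum was mostly TTR, at 819 and 3092 CPM, while KCNJ13 was at 11.5 and 9.67 CPM in aRG and 5.18 to 12.1 elsewhere. The 10 mesenchymal, vascular and immune genes summed to 23.9 to 359 CPM in N, bIP and bRG and to 402 and 2040 in aRG. Among these, COL1A1 was at 155 and 941 CPM in aRG and at most 113 elsewhere. PECAM1 did not follow, at 0.354 and 3.27 CPM in aRG and 1.04 to 5.74 elsewhere. Of the immune markers, PTPRC had 15 to 93 counts per library and AIF1 was listed at 0 in all; rows of widely expressed genes such as TACC3 and MZT2B were listed at 0 too, so that 0 says nothing about microglia. The 6 interneuron genes summed to 3.52 to 16.8 CPM over the 8 libraries, and the 7 glial genes to 5.65 to 53.4 CPM, highest in aRG replicate 1. The part of these cell mixtures in the results below was not tested, and in bulk samples fewer cells of a type and less RNA per cell cannot be told apart.

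The 46 genes took a larger share of the read counts in neurons. They held 2.96% and 2.54% of all counts in N, 1.92% and 2.25% in bIP, 1.38% and 1.87% in bRG, and 1.28% and 1.56% in aRG. The N and bIP libraries thus did not overlap those of either radial glia. Counts were not divided by transcript length, and MAP1B and TUBA1A had the most of any member in every library. The mean level was highest in N for 33 of 46 members (71.7%), against 29.6% of all genes tested, in bIP for 5, in bRG for 0 and in aRG for 8. For 21 members (45.7%) the means descended from N through bIP and bRG to aRG, an order found for 9% of all genes tested.

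**Figure D1:**
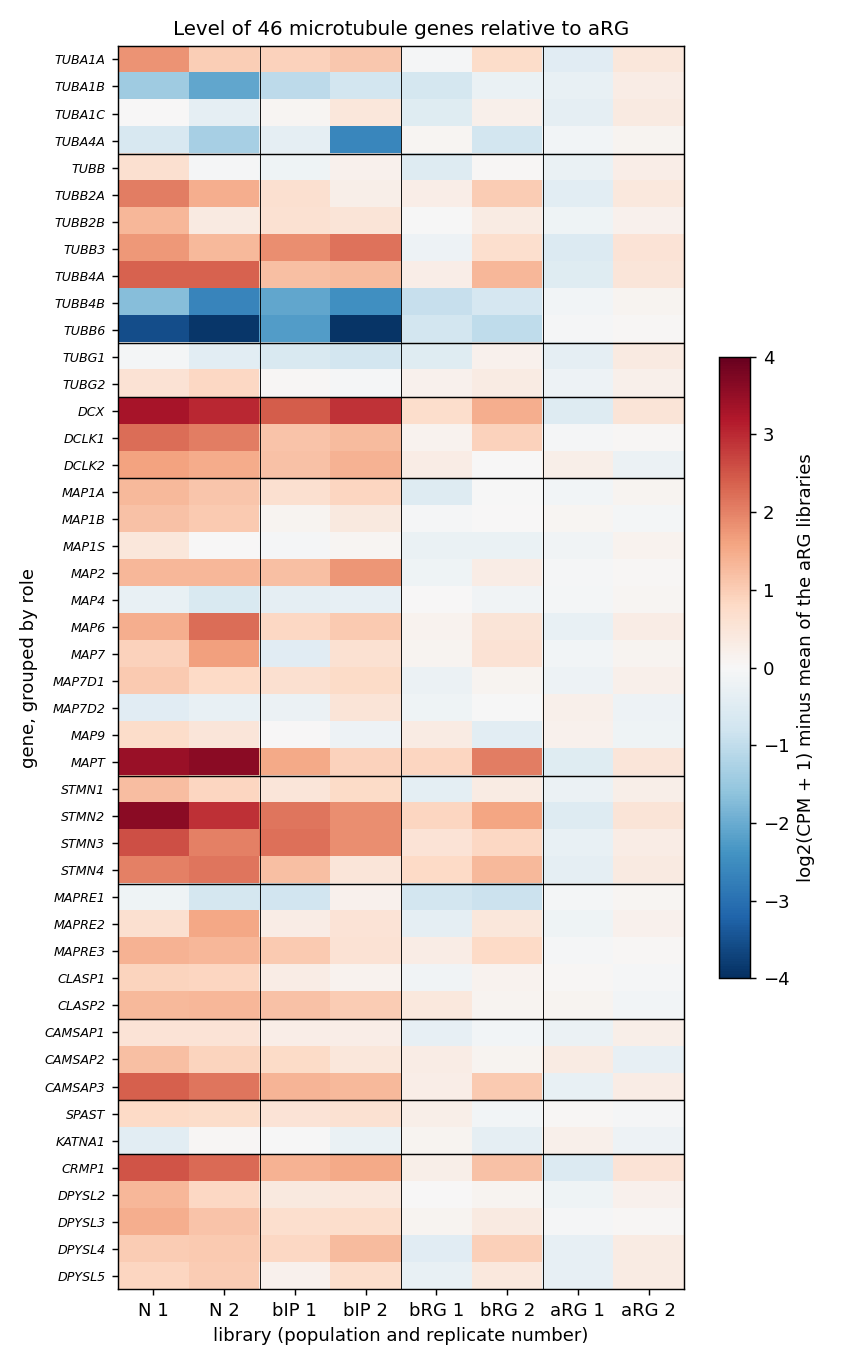
Level of each member in each library as log2(CPM + 1) minus the mean of the aRG libraries, with genes grouped by role down the page and libraries from N on the left to aRG on the right. DCX, MAPT and STMN2 are deep red in both N libraries, and TUBB4B and TUBB6 are blue in the N and bIP libraries.

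Neurons and apical radial glia differed in 27 members. With edgeR's quasi-likelihood test and Benjamini-Hochberg adjustment over all 35382 genes, at a threshold of 0.05, 24 of 46 members (52.2%) were higher in N, against 4.87% of all genes, and 3 (6.52%) were lower, against 4.8%. The median log2 fold change of the members was 1.06 (1.27 and 0.78 within replicate numbers 1 and 2), with a median of −0.08 over all genes. Both N libraries lay above both aRG libraries for 34 members (73.9%), against 23% of all genes, and below them for 7 (15.2%), against 26.2%. The number higher fell to 15 without aRG replicate 1. Of the 27 calls, 16 held under every one of the 16 processing alternatives in which the gene had a value, namely the 3 lower ones and 13 of the 24 higher ones.

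The steps between were smaller in number. Between bIP and aRG, 7 members were higher (15.2%, against 1.34% of all genes) and 2 lower (4.35%, against 1.5%). Both bIP libraries lay above both aRG libraries for 29 members (63%), against 22.1% of all genes, and below them for 6 (13%), against 20.7%. Between N and bIP, 1 member was higher (2.17%, against 1.06%) and 0 lower, against 1.48%; at an unadjusted p under 0.05, 16 were higher and 1 lower, against 6.88% and 8.36% of all genes, and DESeq2 called 5 higher and 0 lower, against 3.18% and 4.44%. Both N libraries lay above both bIP libraries for 29 members (63%), against 20.6% of all genes, and below them for 4 (8.7%), against 24.5%. Between bRG and aRG edgeR called 0 members, against 0% of all genes higher and 0.00283% (1 gene) lower; at an unadjusted p under 0.05, 5 members were higher (MAPT, DCX, STMN2, STMN3 and STMN4) and 1 lower (TUBB4B), against 2.56% and 1.16% of all genes, and DESeq2 called 0, against 0.353% higher and 0.105% lower. Both bRG libraries lay above both aRG libraries for 9 members (19.6%), against 17.5% of all genes, and below them for 4 (8.7%), against 14.1%. The comparisons with aRG share its 2 libraries, and N minus bIP shares libraries with the others too, so these counts are not independent of each other.

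**Figure D2:**
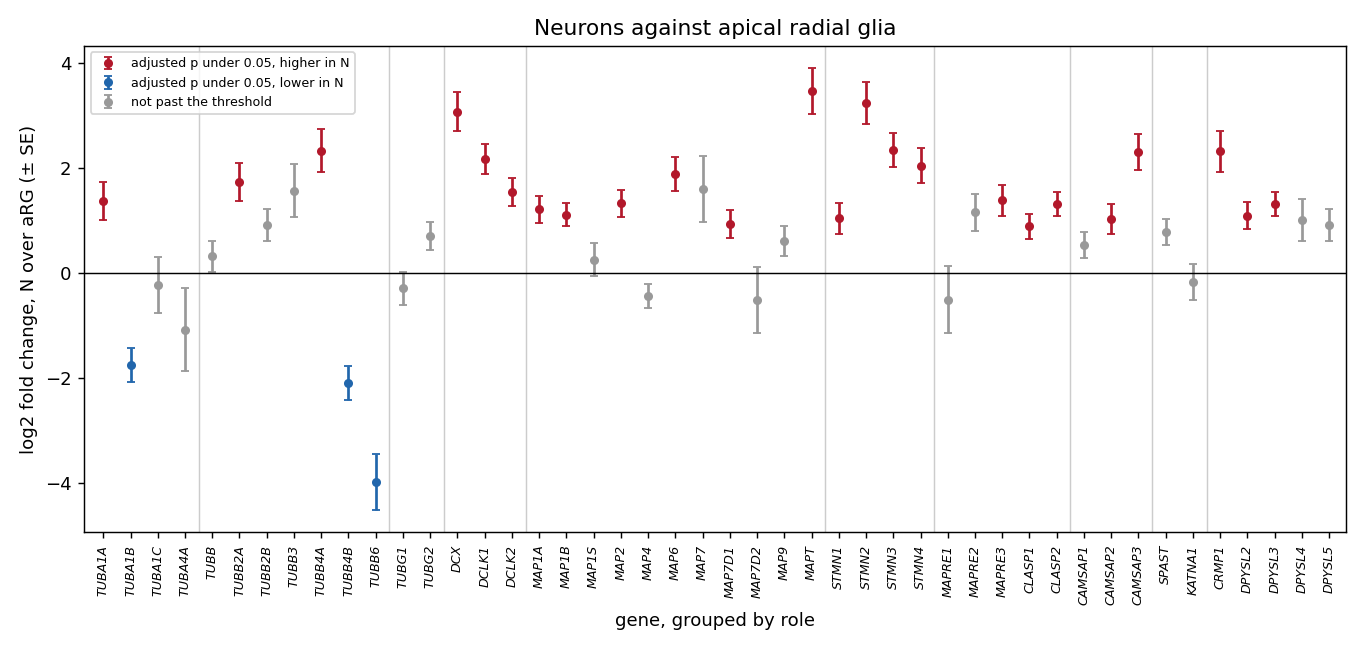
Log2 fold change of N over aRG for each member with its standard error (SE), grouped by role; red and blue points passed an adjusted p of 0.05. TUBB6, at −3.98, is the lowest and MAPT, at 3.46, the highest point.

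Beta tubulin isotypes changed in opposite directions. TUBB6, a broadly expressed isotype, had 5.22 and 3.93 CPM in N, 14.6 and 3.85 in bIP, 43.3 and 35.6 in bRG, and 69.5 and 75.5 in aRG. Neither radial glia overlapped N or bIP, whereas N and bIP overlapped each other. It fell in N against aRG (log2 fold change −3.98, SE 0.54, edgeR adjusted p = 0.000476) and in bIP against aRG (−2.97, SE 0.51, adjusted p = 0.00778). TUBB4B, a broadly expressed isotype also used in cilia, had 161 and 82.5 CPM in N, 122 and 93.6 in bIP, 273 and 328 in bRG, and 487 and 557 in aRG. Both aRG libraries were above both bRG libraries, and these were above all N and bIP libraries. It was lower in N than in aRG (−2.10, SE 0.32, edgeR adjusted p = 0.00114) and lower in bIP than in aRG (−2.28, SE 0.32, adjusted p = 0.00271), with 0.18 between N and bIP (SE 0.31, adjusted p = 0.851). Between bRG and aRG the log2 fold change was −0.79 for TUBB4B (SE 0.31, unadjusted p = 0.0252, edgeR adjusted p = 1) and −0.88 for TUBB6 (SE 0.48, adjusted p = 1). Across the 2 aRG libraries TUBB6 and TUBB4B were at similar levels. The choroid plexus and mesenchymal sums given above differed between those libraries, and whether such cells add to either gene was not tested.

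TUBB2A and TUBB4A, isotypes enriched in brain, were the beta tubulins called higher in N. TUBB2A had 635 and 412 CPM in N, 235 and 178 in bIP, 183 and 310 in bRG, and 113 and 202 in aRG. Both N libraries were above the 6 others, which overlapped each other. It rose in N against aRG (log2 fold change 1.73, SE 0.36, edgeR adjusted p = 0.00838), a call that did not hold without aRG replicate 1 (1.30, adjusted p = 0.0751), and stood at 1.35 between N and bIP (SE 0.36, edgeR adjusted p = 0.0733), where DESeq2 gave an adjusted p of 0.013. TUBB4A had 105 and 104 CPM in N, 46.3 and 48.6 in bIP, 23.9 and 51.3 in bRG, and 13.6 and 28.1 in aRG. Its N libraries were the highest and close together, and it rose by 2.33 on the log2 scale against aRG.

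TUBB3, the isotype widely used as a marker of young neurons, peaked in bIP. It had 21.2 and 15.0 CPM in N, 22.9 and 28.7 in bIP, 4.70 and 9.55 in bRG, and 3.46 and 8.73 in aRG. The bIP libraries lay above both N libraries, and all 4 lay above the radial glia, which overlapped. No comparison passed with edgeR: the log2 fold change was 1.56 between N and aRG (SE 0.51, adjusted p = 0.0824), −0.51 between N and bIP (SE 0.50, adjusted p = 0.693) and 2.08 between bIP and aRG (SE 0.52, adjusted p = 0.057). DESeq2 called both comparisons with aRG (adjusted p = 0.0219 for N and 0.00178 for bIP), and the human-genome table called bIP against aRG (edgeR adjusted p = 0.0372).

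TUBB2B and TUBB, isotypes of the developing brain, varied widely between the N libraries. TUBB2B averaged 1323 ± 615 CPM in N, 1032 ± 47.9 in bIP, 780 ± 131 in bRG and 703 ± 110 in aRG (mean ± SD, n = 2 libraries each, here and below). Both N libraries were above both aRG libraries, and the log2 fold change of N over aRG was 0.91 (SE 0.31, edgeR adjusted p = 0.0913), and without N replicate 2 TUBB2B was called (1.32, adjusted p = 0.0104). TUBB averaged 1483 ± 481 CPM in N, 1181 ± 210 in bIP, 1022 ± 271 in bRG and 1194 ± 300 in aRG, with overlapping N and aRG libraries (0.31, SE 0.30, edgeR adjusted p = 0.619).

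The same data can be read as the share of each isotype in the summed read counts of the 7 beta tubulins, which does not depend on library scaling. Counts were not divided by transcript length, so a share is compared between populations and not between genes. The share of TUBB4B was 3.34% ± 0.32 in N, 4.14% ± 0.92 in bIP, 12.5% ± 1.22 in bRG and 19.7% ± 2.13 in aRG, and that of TUBB6 was 0.132% ± 0.0229 in N, 0.36% ± 0.305 in bIP, 1.69% ± 0.603 in bRG and 2.75% ± 0.399 in aRG. TUBB2A, TUBB2B, TUBB3 and TUBB4A had larger shares in both N libraries than in both aRG libraries. TUBB2A held 14.8% ± 1.04 in N and 5.78% ± 1.18 in aRG, TUBB2B 36.3% ± 3.87 in N and 26.4% ± 1.21 in aRG, and TUBB4A 3.14% ± 1.13 in N and 0.758% ± 0.23 in aRG. The share of TUBB3 was highest in bIP, at 0.986% ± 0.119, against 0.518% ± 0.0691 in N, 0.284% ± 0.0768 in bRG and 0.218% ± 0.0951 in aRG. The share of TUBB was 41.8% ± 1.92 in N and 44.4% ± 2.23 in aRG, with overlapping libraries. Shares are given as a description and were not tested.

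**Figure D3:**
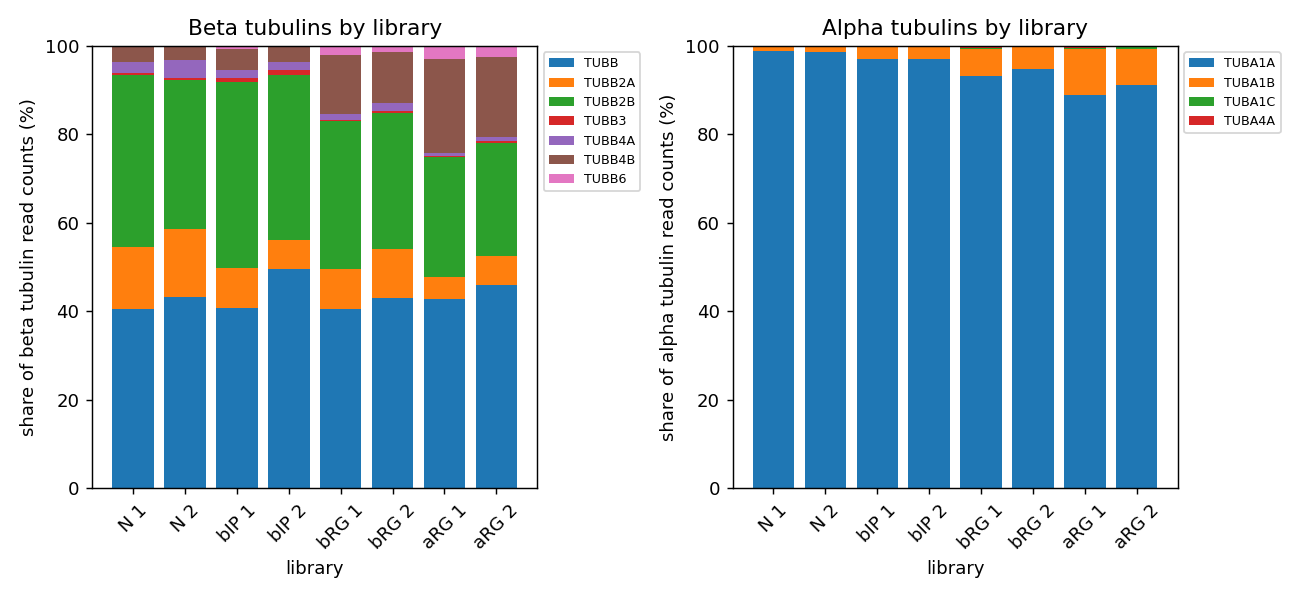
Share of each isotype in the read counts of the 7 beta tubulins (left) and the 4 alpha tubulins (right) in each library, in percent, on the chimpanzee genome. The brown band of TUBB4B covers 3.11% to 3.56% in the N libraries and 18.2% to 21.2% in the aRG libraries.

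Among alpha tubulins, TUBA1A and TUBA1B moved apart. TUBA1A, an alpha isotype of postmitotic neurons, had 7399 and 4232 CPM in N, 4037 and 4496 in bIP, 2056 and 3523 in bRG, and 1547 and 2958 in aRG. The N and bIP libraries were above the radial glia, and N replicate 1 stood far above N replicate 2. It rose in N against aRG (log2 fold change 1.37, SE 0.36, edgeR adjusted p = 0.0327), with 2.26 and 0.52 within replicate numbers 1 and 2. That call was lost without N replicate 1 (0.90, adjusted p = 0.194) and without aRG replicate 1 (0.90, adjusted p = 0.231). TUBA1B, an alpha isotype of proliferating cells, had 80.8 and 50.6 CPM in N, 106 and 131 in bIP, 133 and 182 in bRG, and 180 and 266 in aRG. It was lower in N than in aRG (−1.76, SE 0.32, edgeR adjusted p = 0.00338), and its means were lowest in N, then bIP, then bRG. Its share of alpha tubulin read counts was 1.13% ± 0.0716 in N, 2.69% ± 0.187 in bIP, 5.47% ± 0.809 in bRG and 9.27% ± 1.5 in aRG. That of TUBA1A was 98.7% ± 0.0885 in N, 97.0% ± 0.0913 in bIP, 94.0% ± 1.05 in bRG and 90.0% ± 1.64 in aRG. TUBA1A thus held most alpha tubulin read counts in every population. TUBA4A averaged 4.80 ± 1.85 CPM in N and 10.2 ± 1.29 in aRG and passed no test. Of the gamma tubulins, TUBG1 averaged 102 ± 17.8 CPM in N and 125 ± 45.3 in aRG, and TUBG2 113 ± 12.9 in N and 69.5 ± 14.7 in aRG; neither passed in any comparison.

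**Figure D4:**
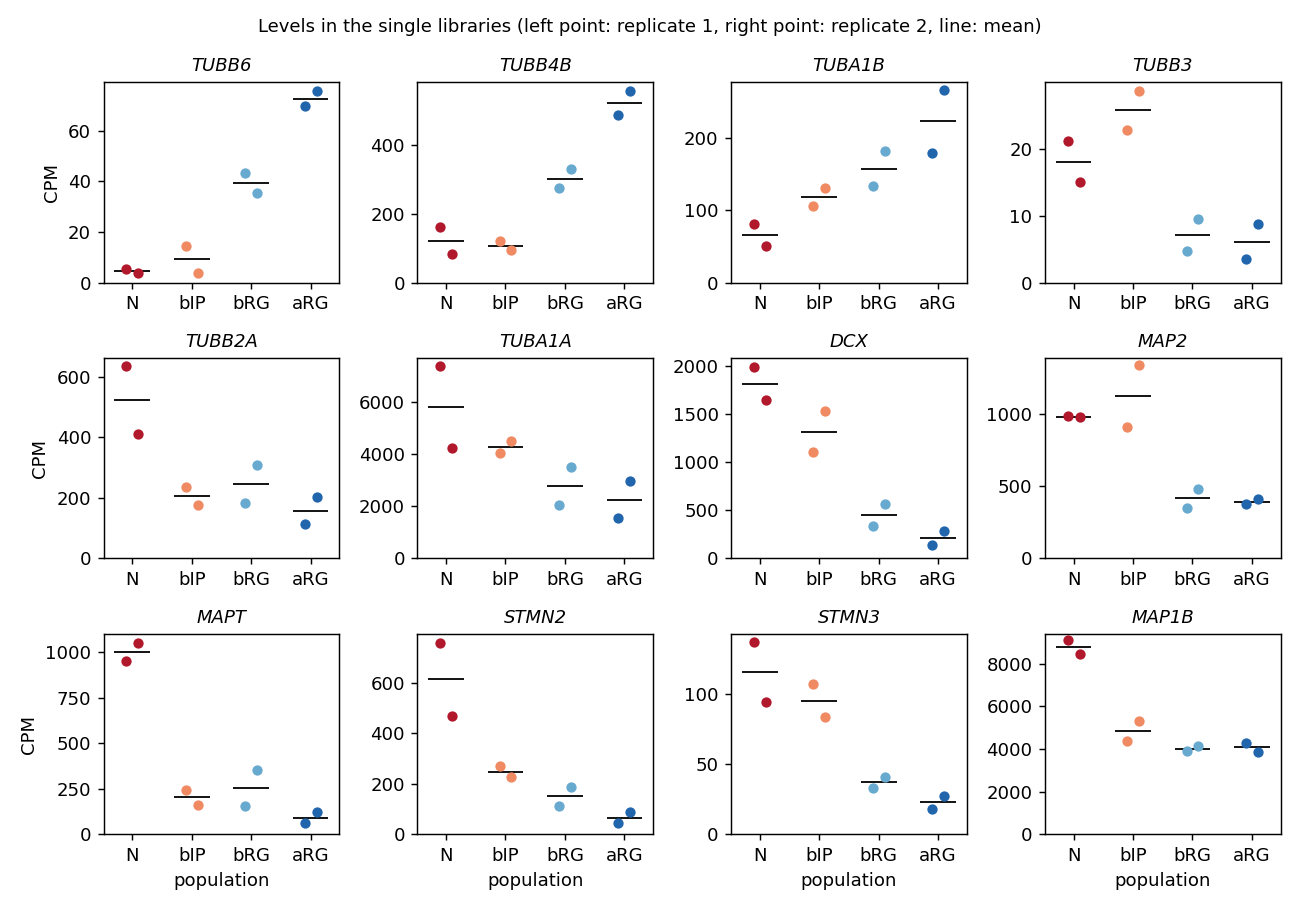
CPM of 12 members in the single libraries, on linear axes that start at 0; points are libraries and lines are means. TUBB6 and TUBA1B step down towards N and TUBB4B is low in both bIP and N. DCX, STMN3 and MAP2 are high in both bIP and N, and MAPT, MAP1B and TUBB2A are high in N alone.

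The 3 genes of the doublecortin family rose in both N and bIP against aRG, beside 4.87% and 1.34% of all genes tested. DCX, which stabilises microtubules in migrating young neurons, had 1988 and 1644 CPM in N, 1101 and 1526 in bIP, 334 and 561 in bRG, and 143 and 290 in aRG. The populations descended in that order without overlap at any step. Its log2 fold change was 3.07 for N over aRG (SE 0.38, edgeR adjusted p = 0.000253), 2.60 for bIP over aRG (SE 0.37, adjusted p = 0.00265) and 0.47 for N over bIP (SE 0.35, adjusted p = 0.582). Between bRG and aRG it was 1.05 (SE 0.35, unadjusted p = 0.0114, edgeR adjusted p = 1). DCLK1, a kinase with doublecortin domains, had 401 and 351 CPM in N, 187 and 201 in bIP, 93.3 and 158 in bRG, and 80.1 and 87.4 in aRG. It rose by 2.17 on the log2 scale in N against aRG (SE 0.29, edgeR adjusted p = 0.000431) and by 1.21 in bIP against aRG (SE 0.28, adjusted p = 0.038). Its relative DCLK2 averaged 255 ± 15.7 CPM in N, 212 ± 21.9 in bIP, 96.5 ± 13.2 in bRG and 87.6 ± 21.0 in aRG, with a log2 fold change of 1.27 for bIP over aRG (SE 0.26, edgeR adjusted p = 0.0205). The bIP calls of DCLK1 and DCLK2 did not hold without single libraries: the adjusted p of DCLK1 was 0.11 and 0.177 without bIP replicates 1 and 2 and 0.193 and 0.123 without aRG replicates 1 and 2, and that of DCLK2 was 0.0567 and 0.141 without bIP replicates 1 and 2 and 0.18 without aRG replicate 2.

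Of the 11 structural MAPs, 6 rose in N against aRG, beside 4.87% of all genes tested. None fell, which is near the 4.8% of all genes that did. MAPT, which encodes the axonal protein tau, had 949 and 1050 CPM in N, 244 and 162 in bIP, 156 and 353 in bRG, and 60.2 and 121 in aRG. The N libraries stood far above the 6 others, bIP and bRG overlapped, and both lay above aRG. It had the largest rise in N against aRG (log2 fold change 3.46, SE 0.44, edgeR adjusted p = 0.000314) and was the member that passed between N and bIP (2.30, SE 0.42, adjusted p = 0.0124), a call lost without bIP replicate 2 (2.04, adjusted p = 0.0894). Between bRG and aRG it stood at 1.49 (SE 0.41, unadjusted p = 0.00318, edgeR adjusted p = 0.773), and without bRG replicate 1 it was called (1.94, adjusted p = 0.0327). The bRG replicate with more MAPT, replicate 2, was also the one with the higher neuron marker sum, 1382 CPM against 636 in replicate 1. N and aRG had the same order. In bIP it was reversed, with neuron marker sums of 2228 and 2485 CPM in replicates 1 and 2 and less MAPT in replicate 2. The part of neurons in these MAPT levels was not tested.

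MAP2, the MAP of dendrites and cell bodies, was at similar levels in the N and bIP libraries. It had 985 and 978 CPM in N, 913 and 1339 in bIP, 348 and 485 in bRG, and 376 and 409 in aRG. N and bIP overlapped, as did bRG and aRG, and the pairs lay apart. The bIP libraries also held neuron markers, as given above. The part of neurons in the bIP levels of MAP2, and of TUBB3, DCX and STMN3, was not tested. Its log2 fold change was 1.32 for N over aRG (SE 0.26, edgeR adjusted p = 0.0065), 1.52 for bIP over aRG (SE 0.27, adjusted p = 0.00843) and −0.20 for N over bIP (SE 0.26, adjusted p = 0.783). MAP2's bIP call was lost without bIP replicate 2 (adjusted p = 0.0898) and without aRG replicate 1 (adjusted p = 0.057), and its N call without aRG replicate 1 (adjusted p = 0.0574). MAP1B, an early axonal MAP, had 9123 and 8438 CPM in N, 4352 and 5302 in bIP, 3910 and 4119 in bRG, and 4295 and 3855 in aRG. Its N libraries stood far above the 6 others, and it rose by 1.11 on the log2 scale in N against aRG (SE 0.21, edgeR adjusted p = 0.00522; 0.0518 without aRG replicate 2). Between N and bIP MAP1B stood at 0.86 (SE 0.21, edgeR adjusted p = 0.0563), where DESeq2 gave an adjusted p of 0.0303. The other MAPs called in N against aRG were MAP6, which makes microtubules cold-stable, at 374 ± 142 CPM in N and 101 ± 28.2 in aRG, MAP1A, the later relative of MAP1B, at 324 ± 28.5 in N and 140 ± 16.2 in aRG, and MAP7D1 at 131 ± 14.5 in N and 69.3 ± 13.9 in aRG. MAP1A was not called without aRG replicate 1 (adjusted p = 0.11), and the call of MAP7D1 was lost whichever 1 library was left out (adjusted p of 0.0714 to 0.356).

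The remaining MAPs passed no test. MAP4, the MAP of non-neuronal and dividing cells, had 243 and 193 CPM in N, 233 and 235 in bIP, 300 and 270 in bRG, and 283 and 311 in aRG, so that both radial glia lay above both other populations (log2 fold change of N over aRG −0.45, SE 0.23, edgeR adjusted p = 0.301). MAP9 averaged 197 ± 21.9 CPM in N and 129 ± 23.6 in aRG, and MAP1S 32.1 ± 6.83 in N and 27.0 ± 3.78 in aRG. MAP7 and MAP7D2 were low, at 1.90 to 11.4 and 2.20 to 5.31 CPM over the 8 libraries.

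All 4 stathmins, which bind tubulin dimers and destabilise microtubules, rose in N against aRG, beside 4.87% of all genes tested. STMN2, a stathmin of growing axons, had 759 and 470 CPM in N, 272 and 225 in bIP, 114 and 187 in bRG, and 42.8 and 88.3 in aRG. The populations descended without overlap, with log2 fold changes of 3.23 for N over aRG (SE 0.40, edgeR adjusted p = 0.000282) and 1.92 for bIP over aRG (SE 0.38, adjusted p = 0.0173). STMN2's bIP call was lost without bIP replicate 1 (adjusted p = 0.0569) and without aRG replicate 1 (adjusted p = 0.094). STMN3, another neural stathmin, had 137 and 93.9 CPM in N, 107 and 83.3 in bIP, 33.0 and 40.7 in bRG, and 18.0 and 27.4 in aRG. N and bIP overlapped and both stood well above the radial glia, with 2.34 for N over aRG (SE 0.32, edgeR adjusted p = 0.000555) and 2.07 for bIP over aRG (SE 0.32, adjusted p = 0.00423). STMN4 had 307 and 339 CPM in N, 178 and 107 in bIP, 131 and 188 in bRG, and 59.0 and 97.7 in aRG. Its bIP and bRG libraries overlapped, and it rose by 2.04 on the log2 scale in N against aRG (SE 0.34, edgeR adjusted p = 0.00192). STMN1, the stathmin that is also expressed in proliferating cells, averaged 1057 ± 197 CPM in N, 788 ± 115 in bIP, 515 ± 180 in bRG and 514 ± 115 in aRG. Its log2 fold change of N over aRG was 1.04 (SE 0.29, edgeR adjusted p = 0.0447), a call lost under 8 of 16 alternatives, among them without N replicate 1 (0.83, adjusted p = 0.188) and without aRG replicate 1 (0.75, adjusted p = 0.298). Between bRG and aRG STMN2, STMN3 and STMN4 stood at 1.20, 0.70 and 1.03 on the log2 scale with both bRG libraries above both aRG libraries, and edgeR's adjusted p was 1 for each.

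CRMPs are cytosolic proteins that bind tubulin and act downstream of axon guidance receptors. CRMP1 had 994 and 832 CPM in N, 447 and 493 in bIP, 202 and 390 in bRG, and 116 and 252 in aRG. N stood above bIP and bIP above both radial glia, and the rise in N against aRG was 2.31 on the log2 scale (SE 0.39, edgeR adjusted p = 0.00204). DPYSL3 averaged 924 ± 145 CPM in N, 597 ± 7.16 in bIP, 440 ± 51.8 in bRG and 372 ± 17.1 in aRG and rose by 1.31 in N against aRG. DPYSL2, which promotes axon formation, averaged 541 ± 129 CPM in N, 338 ± 5.80 in bIP, 265 ± 11.7 in bRG and 255 ± 43.1 in aRG and rose by 1.09, a call lost without N replicate 1 (adjusted p = 0.124) and without aRG replicate 1 (adjusted p = 0.174). DPYSL4 and DPYSL5 had both N libraries above both aRG libraries without passing edgeR's test (adjusted p = 0.158 and 0.0994). DPYSL4 averaged 144 ± 2.29 CPM in N and 148 ± 31.2 in bIP, against 71.7 ± 22.3 in aRG.

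At microtubule ends, 3 of 5 plus-end and 2 of 3 minus-end genes rose in N against aRG, beside 4.87% of all genes tested. CLASP2, which anchors growing plus ends, had 642 and 646 CPM in N, 589 and 519 in bIP, 350 and 281 in bRG, and 280 and 240 in aRG. It was called in N (log2 fold change 1.31 over aRG, edgeR adjusted p = 0.00343) and in bIP (1.09, SE 0.24, adjusted p = 0.026), the bIP call being lost without each of the bIP and aRG libraries (adjusted p of 0.0913 to 0.188). CLASP1 averaged 297 ± 2.75 CPM in N, 187 ± 16.1 in bIP, 162 ± 21.3 in bRG and 161 ± 8.64 in aRG. The N call of CLASP1 was lost whichever 1 library was left out (adjusted p of 0.0574 to 0.204). The end-binding protein MAPRE3 averaged 96.9 ± 2.58 CPM in N and 37.3 ± 1.75 in aRG and rose by 1.38 (adjusted p = 0.0756 without aRG replicate 1), and its relative MAPRE2 averaged 213 ± 90.2 in N and 95.6 ± 15.4 in aRG (edgeR adjusted p = 0.06 on the chimpanzee and 0.0349 on the human genome). CAMSAP3, which caps minus ends, had 95.9 and 81.5 CPM in N, 46.5 and 44.8 in bIP, 21.2 and 37.1 in bRG, and 14.2 and 21.8 in aRG. N was above bIP and bIP above the radial glia, with 2.30 for N over aRG (SE 0.35, edgeR adjusted p = 0.00101) and 1.34 for bIP over aRG (SE 0.34, adjusted p = 0.058, and 0.0332 on the human genome). CAMSAP2 averaged 162 ± 23.1 CPM in N and 79.8 ± 25.7 in aRG and rose by 1.02, a call lost without N replicate 1 (adjusted p = 0.171), N replicate 2 (0.0592) and aRG replicate 2 (0.325). CAMSAP1 averaged 208 ± 0.04 CPM in N and 145 ± 32.3 in aRG and did not pass. Neither severing enzyme passed: spastin (SPAST) averaged 106 ± 4.49 CPM in N and 61.8 ± 3.04 in aRG, and the katanin subunit KATNA1 24.1 ± 5.65 in N and 27.4 ± 5.95 in aRG.

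Other genes of the pathway, taken from lists chosen with earlier results of these data known, did not move as 1 block between N and aRG. Their counts stand beside the 4.87% higher and 4.8% lower of all genes tested. Of 8 tubulin folding cofactors 1 rose, TBCB, at 386 ± 62.6 CPM in N and 138 ± 38.2 in aRG (log2 fold change 1.49, edgeR adjusted p = 0.00746). Of 24 tubulin modifying enzymes, 21 of them tested, 3 rose and 1 fell, the 1 fall being near the share over all genes. TTLL7, a polyglutamylase of beta tubulin, was at 190 ± 64.2 CPM in N and 33.4 ± 6.99 in aRG (2.51, edgeR adjusted p = 0.000442), and VASH2, a tubulin detyrosinase, at 160 ± 60.5 in N and 32.8 ± 14.8 in aRG (2.29, adjusted p = 0.00223). The polyglutamylase TTLL4 fell, at 42.7 ± 8.97 CPM in N and 108 ± 28.1 in aRG (−1.34, edgeR adjusted p = 0.0163). Of 21 nucleation genes, 20 of them tested, 3 fell and 0 rose, with the smallest adjusted p for the spindle factor TPX2, at 10.2 ± 6.24 CPM in N and 193 ± 6.56 in aRG, and the augmin subunit HAUS8, at 11.3 ± 4.69 in N and 54.2 ± 12.6 in aRG; at an unadjusted p under 0.05, 1 of the list was higher and 7 lower, against 3783 and 3932 of all 35382 genes.

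Of 42 further microtubule binding and severing genes, 40 of them tested, 7 rose and 8 fell in N against aRG, beside the same 4.87% and 4.8% of all genes. The falls with the smallest adjusted p were those of CKAP2L, a spindle protein, and GTSE1, a microtubule-binding protein of G2 and mitosis, at 5.37 ± 0.215 and 5.78 ± 1.77 CPM in N and 136 ± 49.8 and 283 ± 9.67 in aRG. The rises with the smallest adjusted p were those of NAV3, a microtubule-binding neuron navigator, at 116 ± 56.8 CPM in N and 8.54 ± 2.73 in aRG, and EML1, at 436 ± 163 in N and 139 ± 21.7 in aRG. Of 16 genes of kinases that act on MAPs and their activators, 15 of them tested, 4 rose and 0 fell (0 lower also at an unadjusted p under 0.05), those with the smallest adjusted p being CDK5R1 and CDK5, an activator and its kinase, which phosphorylate tau and doublecortin. CDK5 was at 97.6 ± 17.0 CPM in N and 27.4 ± 8.81 in aRG (1.83, edgeR adjusted p = 0.0074). CDK5R1 was at 598 ± 77.1 CPM in N, 271 ± 16.9 in bIP, 152 ± 48.2 in bRG and 93.0 ± 29.2 in aRG (2.68 for N over aRG, edgeR adjusted p = 0.000183). Of 10 other tubulin genes 6 were tested and 0 passed with edgeR or at an unadjusted p under 0.05.

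The human-genome (hg38) count table of the same libraries served as a check and held 44 of the 46 members; DCX and MAP7D2 were not analysed on it. Of the 26 calls between N and aRG with a value there, 26 were also called, in the same direction, and so were 8 of 8 between bIP and aRG and 1 of 1 between N and bIP. The human table also called 3 that the chimpanzee table did not, MAPRE2 between N and aRG and TUBB3 and CAMSAP3 between bIP and aRG. To set the tables side by side, CPM were taken over the 18137 symbols in both, and their log2 ratio with 1 CPM added to each; these CPM differ from those above. For 3 members the tables differed by more than 2-fold in the same direction in all 8 libraries: TUBA1C (median log2 ratio −4.25), MAPRE1 (−4.23) and MAP1S (−1.46) were lower on the chimpanzee genome. TUBA1C, close in sequence to TUBA1A and TUBA1B, had 6.71 and 5.21 CPM in N and 5.91 and 10.1 in aRG on the chimpanzee genome, and 257 and 138 in N and 126 and 202 in aRG on the human one. Its share of alpha tubulin read counts was 0.0977% ± 0.017 in N and 0.265% ± 0.00573 in aRG on the chimpanzee genome, and 4.37% ± 0.319 in N and 7.41% ± 0.377 in aRG on the human one. It passed on neither (edgeR log2 fold change of N over aRG −0.24, SE 0.53, adjusted p = 0.859 on the chimpanzee genome, and 0.43, SE 0.37, adjusted p = 0.476 on the human one). MAPRE1, a general end-binding protein, had 4.16 and 2.72 CPM in N and 5.41 and 5.87 in aRG on the chimpanzee genome, and 99.2 and 69.4 in N and 93.3 and 105 in aRG on the human one, and passed on neither. How reads of near-identical tubulins were divided is not given in the sources used here, so levels of TUBA1A, TUBA1B, TUBA1C, TUBB2A and TUBB2B are uncertain to that extent.

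**Figure D5:**
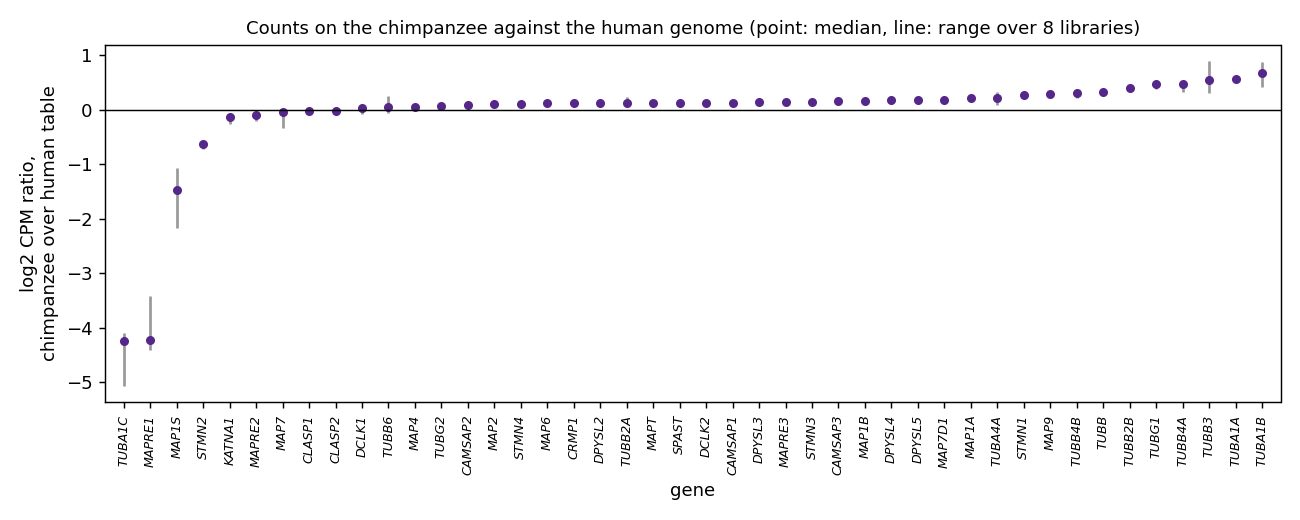
Log2 ratio of CPM on the chimpanzee genome over CPM on the human genome for 44 members, as the median (points) and range (lines) over the 8 libraries. TUBA1C and MAPRE1 lie below −4, MAP1S at −1.46, and the other 41 between −0.62 and 0.67.

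Reads of overlapping genes could not be told apart, since the workflow does not mark the strand. Of the 46 members, 8 overlapped a protein-coding gene by position in the RefSeq annotation of a different chimpanzee assembly, NHGRI_mPanTro3-v2.0. Overlaps may differ on panTro6, whose gene positions were not used. AFG3L2, which overlaps TUBB6, was at 27.7 and 27.8 CPM in N and 36.6 and 38.1 in aRG. TP53BP1, which overlaps MAP1A, was at 156 and 145 CPM in N and 135 and 111 in aRG. MAPT-AS1, an antisense-named row beside MAPT, was at 16.6 and 11.8 CPM in N and 1.77 and 1.45 in aRG. STH, a protein-coding gene that overlaps MAPT, also went in its direction, at 21.1 and 30.9 CPM in N and 0.865 and 3.39 in aRG. EVC, which overlaps CRMP1, went against it, at 0.503 and 2.29 CPM in N and 14.2 and 17.1 in aRG. The part of reads from overlapping genes in the levels of these members was not tested.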

How the data were processed

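Bulk RNA-seq of 4 sorted populations, 2 libraries each, was analysed from 2 deposited tables of read counts, whole numbers by gene symbol, for 2 genomes. Per the submitters' processing notes, STAR and the builds panTro6 and hg38 were used; no source used here gives the STAR version, annotation, counting program or strand setting. Library totals were 24649971 to 33245892 counts on panTro6 and 11635116 to 16447389 on hg38. A panTro6 row with no gene name (0.00545% to 0.00771% of counts) was left out.

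Counts were filtered with filterByExpr (35382 genes), scaled by TMM and fitted with edgeR 4.0.16 (glmQLFit, glmQLFTest; R 4.3.3) in 1 model of the 4 populations over 8 libraries (4 residual degrees of freedom). Two-sided tests were adjusted by Benjamini-Hochberg within each of 4 comparisons. SE was derived from the F statistic. Differences within replicate numbers use log2 CPM with a prior count of 2. No molecular identifiers are stated, so counts may include PCR copies. The model was also run on simulated counts. Their spread between libraries was set smaller than that of these data, so that run does not measure how the tests perform here.

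The members and lists were chosen with earlier results of these data known. Tests are printed for up to 8 called members per direction and comparison with the smallest adjusted p, for the 9 tubulins TUBB, TUBB2A, TUBB2B, TUBB3, TUBB4B, TUBB6, TUBA1A, TUBA1B and TUBA1C, and, from each pathway list, for up to 2 called genes per direction between N and aRG; further members were given because a call changed. The 16 alternatives were DESeq2 1.42.0, its size factors, no filter, at least 5 CPM in 2 libraries, the hg38 table, halved counts, the replicate number as a block, the compared populations alone, and leaving out each library.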

Additional observations from a re-analysis of the deposited data

How the results depend on the processing

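Numbers of members called depended on the setting more in the comparisons with few calls. The calls over all genes, in either direction, moved with the setting as well. Between N and bIP they numbered 900 of 35382, against 2436 with DESeq2 and 2264 of 50802 with no filter. With halved counts they were 973 of 28735. With no filter they rose from 1002 to 2159 between bIP and aRG, and from 1 to 215 between bRG and aRG. They also changed when a library was left out, so the changes below cannot be read as particular to the members. Between N and aRG the members called higher numbered 15 to 23 when a library was left out, and 17 to 31 under the other alternatives; those called lower were 3 throughout. Between N and bIP, 1 was called higher, against 5 with DESeq2, 8 with no low-count filter, 2 with halved counts and 0 to 3 without single libraries. Between bIP and aRG, 7 were called higher, against 14 with no filter and 3 to 10 without single libraries (3 without either bIP library or aRG replicate 1), and 2 to 3 lower. Between bRG and aRG, 0 were called, against 2 higher with no filter (MAPT and STMN2) and 0 to 1 without single libraries (MAPT, without bRG replicate 1).

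The labels state no shared source for same-numbered libraries, although their library names form 2 consecutive runs, 1 for each replicate number. Over all genes tested, the deviations of same-numbered libraries from the group means correlated at 0.046 to 0.104. Single genes still differed by replicate number in every population. MALAT1 held less of the counts in replicate 2 of each, for example 8.51% and 6.37% in N and 7.52% and 3.61% in aRG. SLC1A3 was higher in replicate 2 of each. The main model has no replicate term, so such differences count as spread there. With the replicate number as a block, 31 members were called higher between N and aRG, 8 between N and bIP and 16 between bIP and aRG, while the calls over all genes in either direction numbered 4960, 2165 and 2122 in these comparisons, against 3421, 900 and 1002 without the block. Over the 21 member comparisons whose tests had the smallest adjusted p, 318 of 334 alternative values kept direction and call, 16 kept direction only and 0 reversed. Those 21 were picked by adjusted p, so this rate does not stand for all calls. Among all members called higher, 11 between N and aRG and 5 between bIP and aRG lost their call in some alternative. Of 18 isotype shares, 9 moved by more than 1 SD on the human genome, among them TUBA1A in N, at 94.4%. Shares per transcript length were not run, since no transcript lengths were given. Where a call was lost, the cause was not tested. With 2 libraries per population, differences within their spread were not detectable.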
